A study of Homo sapiens with 6 samples.

Results

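Interferon-stimulated genes (ISGs) were examined in H1975 cells, a human lung cancer line (NSCLC) that carries mutant EGFR, before and after exposure to osimertinib (Osi), an EGFR tyrosine kinase inhibitor. The 44 genes were taken by symbol from a list of widely known ISGs, and each of them was among the 27216 rows of the expression table. The comparison asks which of these genes differ between parental cells and cells that have adapted to the drug. RNA was sequenced from 3 parental samples (Osi for 0 h) and 3 adapted samples (1000 nM Osi for 72 h), all labelled as wild-type for genotype. The dose is that of the labels, and a supplementary table of the study lists a lower one. Both groups came from the same line in the same medium. In the adapted group apoptotic cells were rinsed off with cold PBS, so only the cells left on the plate were measured. The table's parental columns carry the name of the solvent DMSO while the labels give 0 h of Osi, and time in culture and Osi cannot be told apart here. The labels also describe digestion with RNase R, which degrades linear RNA, whereas the study's methods name total RNA. The study's statistics section speaks in general of independent experiments with technical replicates, but the labels do not say that these 3 replicates were separate cultures. Each p-value therefore measures only the spread between these samples, which may be technical.

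Interferons are secreted cytokines that alert cells to infection. Type I and type III interferons bind their receptors and activate the kinases JAK1 and TYK2, which lead to phosphorylation of STAT2. STAT2 and IRF9 are subunits of ISGF3, a complex that binds the interferon-stimulated response element (ISRE) in promoters and switches on genes that block viral entry, translation and replication, while interferon gamma acts mainly through gamma-activated sites (GAS). Tumour cells can express many of these genes without infection.

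Most of the ISGs for which a promoter sequence was at hand carry an ISRE-type element close to the start of the gene. An ISRE-type match was defined as GAAA, any 2 bases and GAAA, and a GAS-type match as TTC, any 3 bases and GAA, on either strand, from 250 bases before to 50 bases after each RefSeq gene start (GRCh38.p14). Of the 44 ISGs, 35 had a promoter entry, and IRF7, IFIT2, IFITM2, MX2, OAS2, OASL, DHX58, USP18 and TRIM22 had none. An ISRE-type match lay in 24 of the 35 genes (68.6%), against 4.38% of all 27305 genes with an entry and 3.57% of all 35116 promoters. A GAS-type match lay in 10 of the 35 (28.6%), against 9.38% of all genes and 7.66% of all promoters. The 250 bases before the start are given for LGALS3BP and PARP14, which rose in adapted cells, for OAS3 and IFI44, which fell, for ISG15, the eponymous gene of the class, and for STAT2, which rose and had no match. Capitals mark the ISRE-type matches, and in ISG15 a pair of overlapping matches forms 1 capital run.
LGALS3BP, chr17:78979924-78980173, minus strand: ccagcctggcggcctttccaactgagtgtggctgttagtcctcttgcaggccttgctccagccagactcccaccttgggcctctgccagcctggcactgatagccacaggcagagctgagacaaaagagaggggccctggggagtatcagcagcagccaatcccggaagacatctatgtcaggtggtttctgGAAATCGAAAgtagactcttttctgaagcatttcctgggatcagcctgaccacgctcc
PARP14, chr3:122680589-122680838, plus strand: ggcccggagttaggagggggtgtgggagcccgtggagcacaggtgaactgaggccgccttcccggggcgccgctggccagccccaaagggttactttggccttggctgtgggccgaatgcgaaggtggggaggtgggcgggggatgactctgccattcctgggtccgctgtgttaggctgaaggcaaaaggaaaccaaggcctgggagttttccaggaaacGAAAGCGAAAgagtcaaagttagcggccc
OAS3, chr12:112938224-112938473, plus strand: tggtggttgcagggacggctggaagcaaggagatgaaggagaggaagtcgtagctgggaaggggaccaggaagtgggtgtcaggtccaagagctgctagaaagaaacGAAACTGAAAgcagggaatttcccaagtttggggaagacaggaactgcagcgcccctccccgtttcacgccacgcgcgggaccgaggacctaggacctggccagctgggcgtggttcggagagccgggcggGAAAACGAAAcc
IFI44, chr1:78649539-78649788, plus strand: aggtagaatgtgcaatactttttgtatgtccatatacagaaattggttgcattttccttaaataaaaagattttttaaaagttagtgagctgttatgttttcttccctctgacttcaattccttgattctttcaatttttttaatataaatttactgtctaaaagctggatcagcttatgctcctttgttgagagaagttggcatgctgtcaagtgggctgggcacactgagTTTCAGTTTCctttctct
ISG15, chr1:1013247-1013496, plus strand: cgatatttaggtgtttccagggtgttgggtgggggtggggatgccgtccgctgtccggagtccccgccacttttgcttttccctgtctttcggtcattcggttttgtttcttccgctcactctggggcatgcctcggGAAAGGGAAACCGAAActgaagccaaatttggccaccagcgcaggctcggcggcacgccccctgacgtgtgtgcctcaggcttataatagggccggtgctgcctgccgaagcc
STAT2, chr12:56360108-56360357, minus strand: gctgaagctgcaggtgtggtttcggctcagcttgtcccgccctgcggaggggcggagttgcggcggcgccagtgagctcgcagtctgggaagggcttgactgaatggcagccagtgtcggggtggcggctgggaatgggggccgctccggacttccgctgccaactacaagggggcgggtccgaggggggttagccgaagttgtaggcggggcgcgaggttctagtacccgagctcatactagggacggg
The matches began 58 bases before the RefSeq start in LGALS3BP, 29 in PARP14, 143 and 12 in OAS3, 18 in IFI44, and 113 and 107 in ISG15. Genes that rose and genes that fell thus both carried the element, in PARP14 and IFI44 within a short distance of the RefSeq start. The GENCODE positions used below differ from these starts. The PARP14, LGALS3BP and ISG15 matches and the OAS3 match at 12 bases lie inside the GENCODE spans of those genes. Among the genes with an entry, an ISRE-type match was found in 3 of 7 that rose, 6 of 7 that fell and 15 of 21 that did not pass the test. These counts describe letters in a window and were not tested.

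The ISGs did not move as a block in adapted cells. TRIM22, an antiviral ubiquitin ligase, was 14.1-fold higher in mean FPKM, and STAT2 was 2.85-fold higher, whereas OASL was 3.74-fold lower in adapted cells and OAS3, IFI44 and IFITM1 also fell. FPKM is the fragment count scaled to transcript length and sequencing depth. The deposited log2 values name no unit, and levels below take them as log2(FPKM + 1). Fold changes on this scale understate the change of genes with low levels. Of the 44 genes, 43 passed a filter on low values (a mean of at least 1 over the 6 samples). With limma and Benjamini-Hochberg adjustment over all 12656 rows tested, at a threshold of 0.05, 9 of the 43 were higher and 9 were lower in adapted cells, and 25 did not pass. These 18 genes are 41.9% of the 43, below the 56.9% of all rows that passed. In each direction the share was 20.9%, against 30.7% of all rows for higher and 26.2% for lower. The median log2 fold change was 0.0022 for the 43 genes and 0.028 for all rows, and the median size of the change was 0.28 and 0.31. The groups did not overlap for 20 of the 43 genes (46.5%), against 66.3% of all rows. For a single gene the smallest p that an exact permutation test of 3 against 3 samples can give is 0.1. Any gene without overlap has this p, so it adds nothing for these 20 genes.

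**Figure D1:**
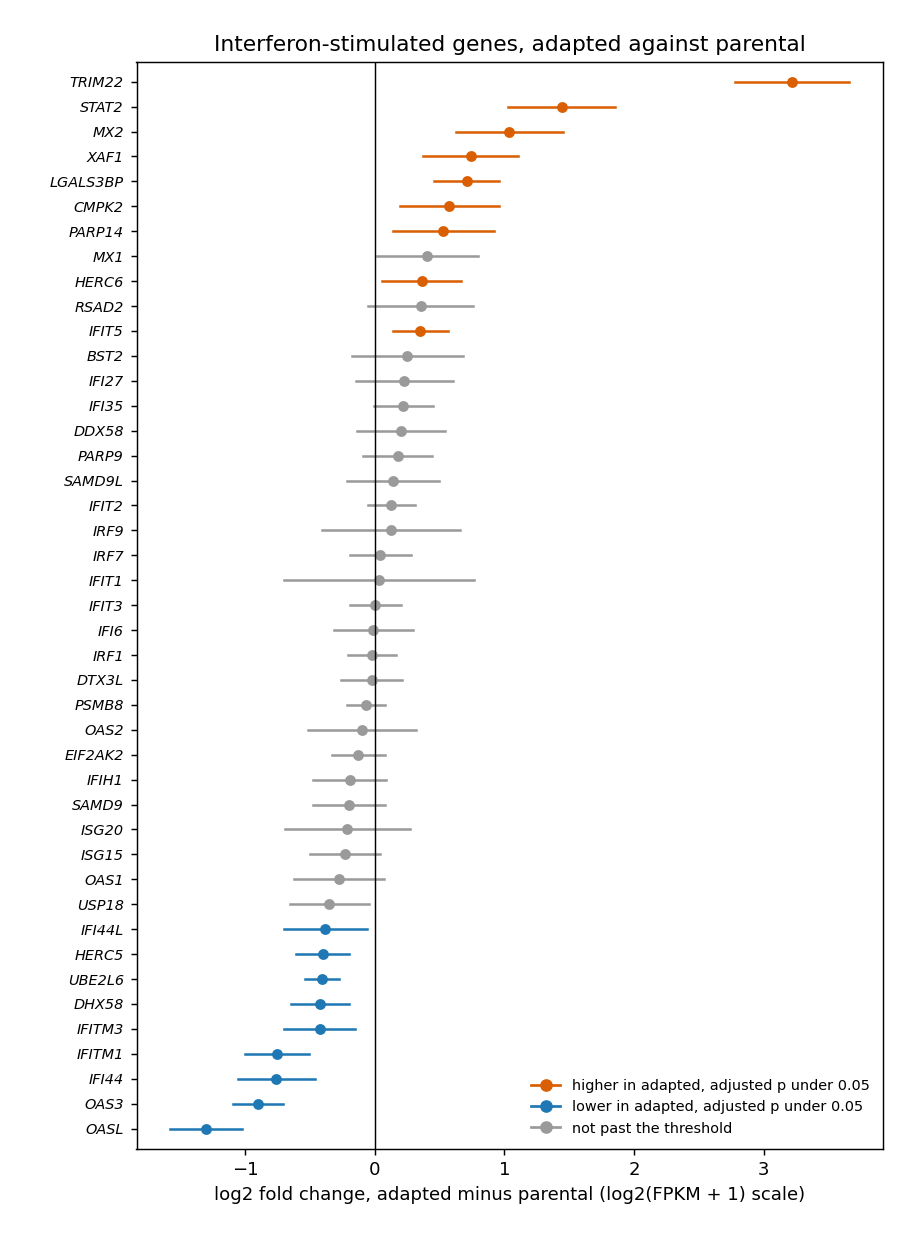
Log2 fold change, adapted minus parental, on the log2(FPKM + 1) scale for the 43 ISGs tested with limma. Points are estimates and bars are 95% confidence intervals, with genes past an adjusted p of 0.05 coloured by direction. TRIM22 at 3.22 stands apart from the other genes, which lie between -1.30 and 1.44.

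Among the transcription factors of the class, STAT2, a subunit of ISGF3, was the 1 of 4 that changed. STAT2 (chr12:56341597-56360155, minus strand, GRCh38) had levels of 4.70, 4.80 and 4.72 in parental samples 1 to 3 and of 5.73, 6.46 and 6.35 in adapted samples 1 to 3. All adapted samples lay above all parental samples, and adapted sample 1 was the lowest of them. The log2 fold change was 1.44 (SE 0.18, adjusted p = 4.32e-04), and mean FPKM went from 25.7 to 73.2. IRF9, its DNA-binding partner, had means of 3.19 ± 0.08 and 3.31 ± 0.50 (SD, n = 3 per group throughout), with an adjusted p of 0.662 in limma. IRF9 was spread from 2.87 in adapted sample 1 to 3.86 in adapted sample 2, on both sides of the parental values. IRF1, a factor induced by interferon gamma, and IRF7, the factor that amplifies type I interferon production, did not pass the test, with parental and adapted means of 4.58 and 4.56 for IRF1 and of 4.01 and 4.05 for IRF7.

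TRIM22 had the largest change of the 44 genes and was among the least expressed of them in parental cells. TRIM22 (chr11:5689689-5737089, plus strand) had levels of 1.58, 1.45 and 1.53 in parental samples and of 4.28, 5.08 and 4.86 in adapted samples. The groups lay far apart, with adapted sample 1 again the lowest of the 3. For TRIM22 the log2 fold change was 3.22 (SE 0.19, adjusted p = 1.72e-05), with mean FPKM of 1.88 and 26.5. TRIM22 shares part of its locus with TRIM5, another antiviral ubiquitin ligase on the opposite strand, whose means were 3.39 and 3.69 (log2 fold change 0.30, adjusted p = 0.0125). Whether counting used strand is not stated, so reads in the shared part cannot be assigned with certainty.

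CMPK2, a nucleotide kinase, was the other antiviral effector that rose. Its means were 1.05 ± 0.15 and 1.63 ± 0.30 (log2 fold change 0.58, adjusted p = 0.0193), and with a pseudocount of 0.1 in place of 1 the log2 fold change was 0.89. CMPK2 overlaps RSAD2 on the opposite strand, and RSAD2, the gene of the antiviral enzyme viperin, had means of 0.86 and 1.22 and an adjusted p of 0.118. RSAD2 passed the filter only through its adapted values. ISG20, an RNA exonuclease, and SAMD9 and SAMD9L, which restrict poxviruses, did not pass the test, with log2 fold changes of -0.21, -0.20 and 0.14.

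The MX GTPases, which trap viral nucleocapsids, had a called change in 1 of 2 members. MX2 (chr21:41361943-41409390, plus strand) had levels of 2.67, 2.66 and 2.67 in parental samples and of 3.30, 4.07 and 3.75 in adapted samples. Parental values were nearly identical and every adapted value was above them. This gave a log2 fold change of 1.04 (SE 0.18, adjusted p = 0.002), or from 5.35 to 12.4 in mean FPKM. MX1, its neighbour on the chromosome, had means of 5.32 ± 0.05 and 5.72 ± 0.36, an interval of 0.02 to 0.79 for the log2 fold change, and an adjusted p of 0.0701.

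The enzymes that sense double-stranded RNA had no member that rose and 2 of 5 that fell. OASL, a member of the oligoadenylate synthetase family without synthetase activity that works with the sensor RIG-I, had the largest fall of the 44 genes. OASL (chr12:121019111-121039242, minus strand) had levels of 2.37, 2.32 and 2.42 in parental samples and of 1.05, 1.30 and 0.87 in adapted samples. The groups did not overlap, and adapted sample 3 was the lowest. The log2 fold change was -1.30 (SE 0.12, adjusted p = 1.15e-04), and mean FPKM went from 4.18 to 1.12. OAS3, a synthetase of the second messenger that activates RNase L, went from 5.43 ± 0.03 to 4.53 ± 0.15 (log2 fold change -0.90, adjusted p = 1.14e-04). OAS1 and OAS2, which lie beside OAS3 on chromosome 12, did not pass, with log2 fold changes of -0.28 and -0.10 and adapted values on both sides of the parental mean. EIF2AK2, the kinase PKR that halts translation, had means of 4.25 and 4.12 and did not pass. All 5 estimates were below 0, but the OAS genes are paralogs and could share reads.

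**Figure D2:**
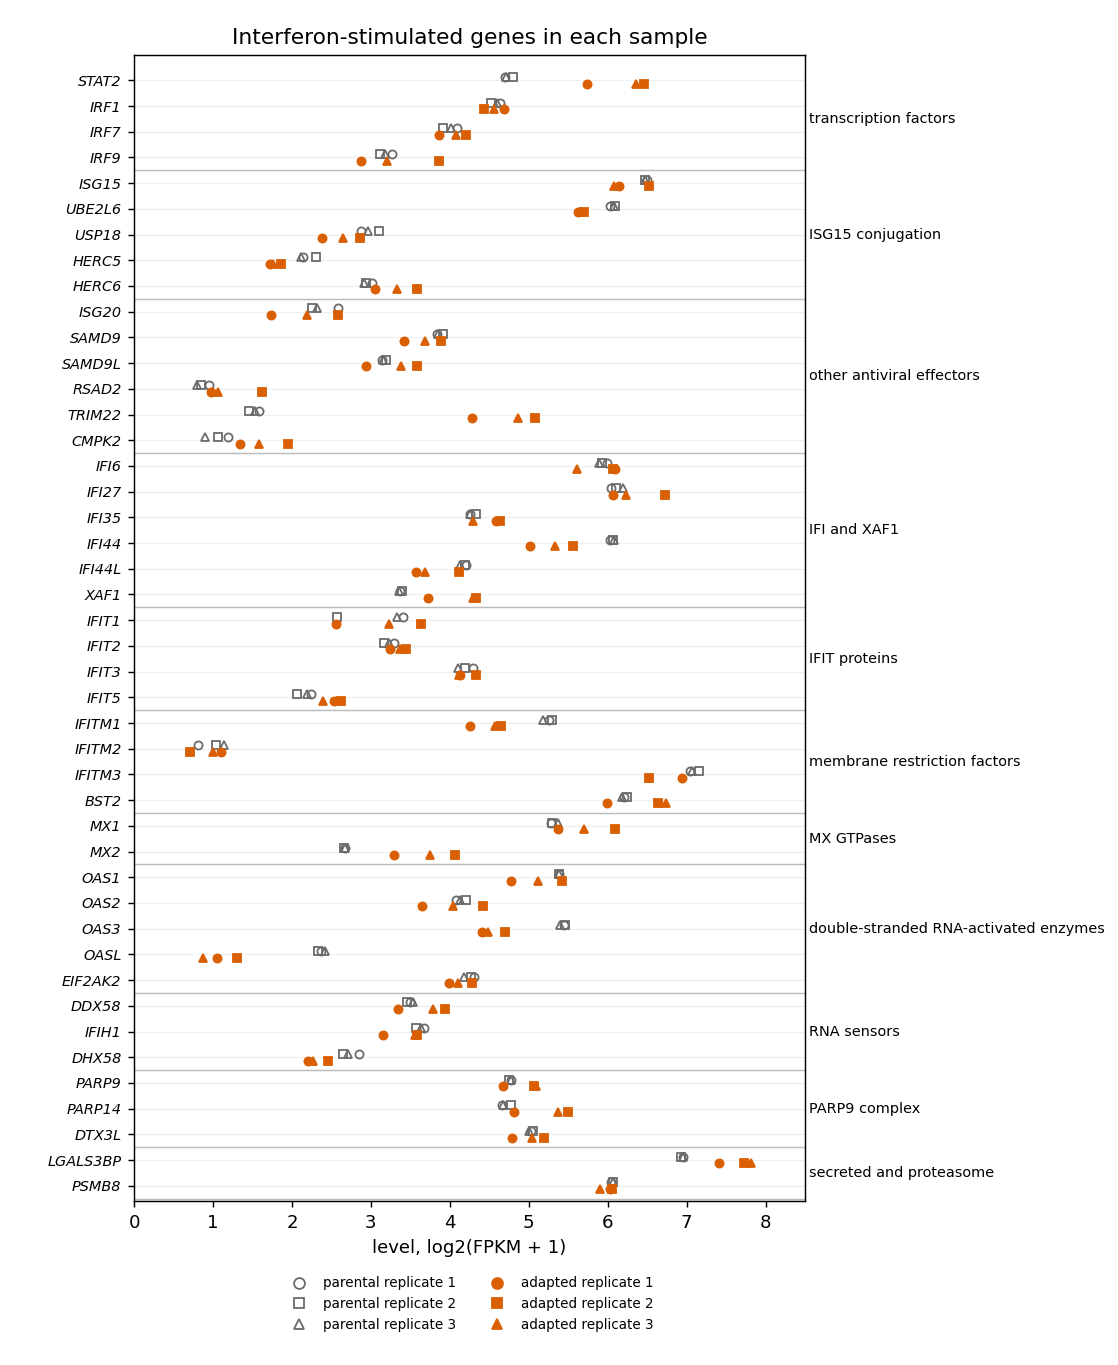
Level, log2(FPKM + 1), of the 44 ISGs in each of the 6 samples, ordered by role. Open grey symbols are parental and filled orange symbols adapted samples, with circle, square and triangle for replicates 1, 2 and 3. For many genes the adapted circle lies to the left and the adapted square to the right, while the parental symbols sit close together.

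DHX58 fell and the other cytosolic RNA sensors did not pass the test. DHX58 encodes LGP2, a regulator of the sensors RIG-I and MDA5. DHX58 (chr17:42101404-42112733, minus strand) had levels of 2.85, 2.64 and 2.71 in parental samples and of 2.21, 2.45 and 2.27 in adapted samples. The groups did not overlap, though the gap between parental sample 2 and adapted sample 2 was narrower than the range within either group. For DHX58 the log2 fold change was -0.42 (SE 0.09, adjusted p = 0.00705). DDX58, which encodes RIG-I, had a log2 fold change of 0.20 (adjusted p = 0.268), and IFIH1, which encodes MDA5, of -0.19 (adjusted p = 0.203). In both genes adapted sample 1 lay below all 3 parental samples.

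The IFITM proteins, which hinder fusion of viruses with cell membranes, fell where they could be tested. IFITM1 (chr11:313506-315272, plus strand) had levels of 5.26, 5.29 and 5.18 in parental samples and of 4.25, 4.65 and 4.57 in adapted samples. Every adapted sample was below every parental sample. This gave a log2 fold change of -0.75 (SE 0.11, adjusted p = 8.04e-04). IFITM3 was among the most abundant ISGs in parental cells and went from 135 to 101 in mean FPKM (log2 fold change -0.43, adjusted p = 0.0171). Its adapted values were 6.94, 6.53 and 6.52, so here adapted sample 1 was the highest and stood closest to the parental samples. IFITM2 was the gene that did not pass the filter, with means of 0.996 ± 0.17 and 0.938 ± 0.21. The IFITM genes are close paralogs and IFITM1 and IFITM2 overlap on the same strand, so the split of reads between them is uncertain. BST2, the tether that holds budding virions, had means of 6.21 ± 0.03 and 6.46 ± 0.41 and did not pass (adjusted p = 0.276).

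IFIT5 rose, while the other members of the IFIT family, which bind viral RNA 5′ ends, differed little in mean. IFIT5 (chr10:89414586-89421001, plus strand) had levels of 2.24, 2.06 and 2.19 in parental samples and of 2.54, 2.62 and 2.39 in adapted samples. The adapted values were all higher, and the lowest of them was adapted sample 3. The log2 fold change was 0.35 (SE 0.09, adjusted p = 0.0129). IFIT1, IFIT2 and IFIT3 had log2 fold changes of 0.03, 0.13 and 0.0022. IFIT1 was the ISG with the widest spread in parental cells, where sample 2 stood at 2.57 and samples 1 and 3 at 3.41 and 3.33. The loci of IFIT1, IFIT2 and IFIT3 each overlap LIPA on the other strand.

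ISG15, a ubiquitin-like protein that is attached to other proteins, had no called change, but genes of its conjugation cycle did. ISG15 had means of 6.48 ± 0.02 and 6.25 ± 0.24 (log2 fold change -0.23, adjusted p = 0.129). UBE2L6, its conjugating enzyme, fell. UBE2L6 (chr11:57551656-57568284, minus strand) had levels of 6.03, 6.09 and 6.08 in parental samples and of 5.62, 5.69 and 5.65 in adapted samples. Both groups were tight and did not overlap, with an SD of 0.03 in each. For UBE2L6 the log2 fold change was -0.41 (SE 0.05, adjusted p = 6.42e-04). HERC5, the main human ligase for ISG15, went from 2.19 ± 0.10 to 1.78 ± 0.07 (log2 fold change -0.40, adjusted p = 0.00616). HERC6, its neighbour and paralog on chromosome 4, moved the other way, from 2.96 ± 0.05 to 3.32 ± 0.27 (log2 fold change 0.36, adjusted p = 0.0459). USP18, the protease that removes ISG15 and restrains the type I receptor, had means of 2.98 and 2.63 and an adjusted p of 0.0506. Its groups did not overlap but nearly touched, at 2.88 in parental sample 1 and 2.86 in adapted sample 2.

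PARP14 was the member of the PARP9 complex group that rose. PARP14, a mono-ADP-ribosyltransferase, lies at chr3:122680618-122730840 on the plus strand. Its levels were 4.66, 4.77 and 4.67 in parental samples and 4.82, 5.50 and 5.37 in adapted samples. Adapted sample 1 lay just above the parental samples and the other two well above them. This gave a log2 fold change of 0.53 (SE 0.17, adjusted p = 0.0282). PARP9 and its partner DTX3L, a ubiquitin ligase, are divergent overlapping genes and did not pass, with log2 fold changes of 0.18 and -0.02.

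IFI44 and its neighbour IFI44L, cytoplasmic proteins linked to reduced viral growth, both fell. IFI44 (chr1:78649796-78664078, plus strand) had levels of 6.03, 6.07 and 6.09 in parental samples and of 5.02, 5.56 and 5.33 in adapted samples. The groups did not overlap, and adapted sample 1 was the farthest from the parental level. The log2 fold change was -0.76 (SE 0.13, adjusted p = 0.00181). IFI44L went from 4.18 ± 0.04 to 3.79 ± 0.29 (log2 fold change -0.38, adjusted p = 0.0452), with adapted sample 2 at 4.12 beside a lowest parental value of 4.13. XAF1, a proapoptotic antagonist of the inhibitor XIAP, rose from 3.38 ± 0.02 to 4.12 ± 0.34 (log2 fold change 0.74, adjusted p = 0.00538). IFI6 and IFI27, small mitochondrial or membrane proteins, and IFI35 did not pass, with log2 fold changes of -0.01, 0.23 and 0.22.

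LGALS3BP, a secreted galectin-binding glycoprotein, had the highest mean level of the 44 genes in adapted cells. LGALS3BP (chr17:78971238-78980109, minus strand) had levels of 6.95, 6.93 and 6.95 in parental samples and of 7.41, 7.73 and 7.82 in adapted samples. The adapted samples were all higher, and adapted sample 1 was the lowest. For LGALS3BP the log2 fold change was 0.71 (SE 0.11, adjusted p = 0.00112), from 122 to 202 in mean FPKM. PSMB8, a subunit of the immunoproteasome that trims peptides for MHC class I, had means of 6.06 ± 0.02 and 5.99 ± 0.08 (adjusted p = 0.402).

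The adapted samples kept a common order across many ISGs. Adapted sample 1 had the lowest value of the 3 in 34 of 43 genes (79.1%), against 39.2% of all rows, and adapted sample 2 had the highest in 37 (86.0%), against 32.4% of all rows. The median difference from the parental mean was -0.15 in adapted sample 1, 0.20 in sample 2 and 0.0082 in sample 3, whereas for all rows these medians were 0.03, 0.04 and 0.02. This order was seen in TRIM22, which rose, in IFI44, which fell, and in MX1, which did not pass. The SD between replicates was larger in the adapted than in the parental group for 42 of 43 genes (97.7%), against 79.9% of all rows, with medians of 0.05 in parental and 0.24 in adapted samples for the ISGs and of 0.06 and 0.13 for all rows. These shares are descriptions, since the genes of 1 sample are not independent. Mitochondrially encoded genes took 10.9%, 9.73% and 12.2% of the summed FPKM in adapted samples 1 to 3 and 8.07% to 8.66% in parental samples, and their part in the order was not tested.

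**Figure D3:**
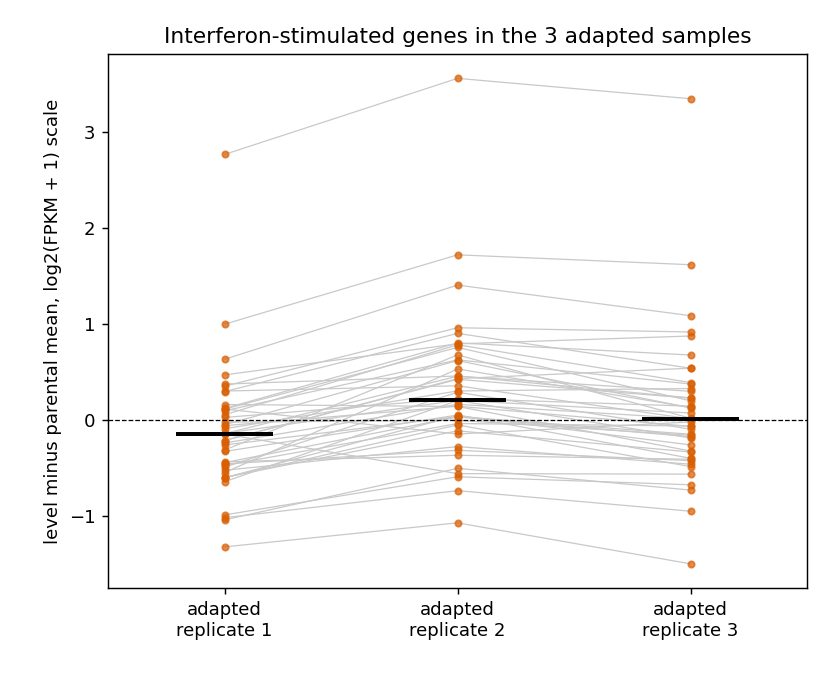
Difference of each of the 43 ISGs from its parental mean in the 3 adapted samples, log2(FPKM + 1) scale, with grey lines joining the values of a gene and black bars at the medians of -0.15, 0.20 and 0.0082. Most lines peak at adapted replicate 2.

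The calls changed when single samples were left out. Without adapted sample 1, 17 ISGs were higher and 8 lower, while over all rows the calls went from 7202 to 8370. MX1, BST2, RSAD2, DDX58, IFI27, SAMD9L, PARP9 and IFIT2 then passed the test as higher. RSAD2 had entered the test only through its adapted values, so its call is no test of it. Without adapted sample 2, 7 were higher and 12 lower, and ISG15, OAS1, SAMD9 and USP18 passed as lower, with 6461 calls over all rows. Without parental sample 2, 5 were higher and 7 lower, with 5763 calls over all rows. Of the 18 called genes, 12 kept their call in every one of the alternatives that gave them a value, namely TRIM22, STAT2, MX2, XAF1, LGALS3BP, OASL, OAS3, IFI44, IFITM1, UBE2L6, HERC5 and DHX58, and no called gene changed direction. HERC6, IFI44L, PARP14, IFITM3, CMPK2 and IFIT5 lost theirs in 8, 7, 6, 4, 3 and 1 alternatives, with highest adjusted p-values of 0.143, 0.15, 0.119, 0.0748, 0.0834 and 0.0576. HERC6 and PARP14 passed with adapted sample 1 left out but with no other sample left out, and IFI44L only with adapted sample 2 left out. IFITM3 did not pass without adapted sample 2, adapted sample 3 or parental sample 2 (log2 fold changes of -0.36, -0.36 and -0.40), CMPK2 without parental sample 2 or 3 (0.58 and 0.50), and IFIT5 without parental sample 2 (0.30).

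The genes around the ISGs in the pathway included inhibitors and interferon gamma receptors that fell and type I receptors that rose. Of 32 such genes, 25 passed the filter, of which 5 were higher (20.0%) and 8 lower (32.0%). Together 52.0% were called, below the 56.9% of all rows, of which 30.7% were higher and 26.2% lower. The ligands on this list were IFNB1, IFNE, IFNK, IFNL1, IFNL2, IFNL3 and IFNG. Other interferons, such as the interferon alpha genes, were not looked up. Transcripts of the ligands on the list were scarce. IFNB1, the gene of interferon beta, had levels of 0.18, 0.12 and 0.08 in parental samples and was listed at 0 in all adapted samples. IFNE, an epithelial type I interferon, had levels of 0.96, 0.46 and 0.58 in parental and of 0.72, 1.04 and 0.69 in adapted samples, and the groups overlapped. IFNK was at 0.06, 0.04 and 0 in parental samples, IFNL1 at 0.36, 0 and 0, and both were listed at 0 in adapted samples. IFNL2, IFNL3 and IFNG were listed at 0 in all 6 samples. None of these ligands passed the filter, so none was tested. Depth is unknown, and a value of 0 in such a table shows only that no expression was listed.

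Both chains of the type I receptor rose. IFNAR1 went from 3.98 to 4.41 (log2 fold change 0.43, adjusted p = 0.00274) and IFNAR2 from 4.43 to 4.66 (0.24, adjusted p = 0.00861). The receptor of interferon gamma went the other way, with a log2 fold change of -1.15 for IFNGR2 (adjusted p = 3.15e-05) and of -0.23 for IFNGR1 (adjusted p = 0.0198). TYK2, the kinase bound to IFNAR1, rose by a log2 fold change of 0.26 (adjusted p = 0.0134). JAK1 did not pass (0.12, adjusted p = 0.14). Nor did the receptor chains IFNLR1 (0.37, adjusted p = 0.0789) and IL10RB (-0.12, adjusted p = 0.553).

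Negative regulators and DNA sensing genes were among those that fell. SOCS1, which blocks JAK kinases, had levels of 3.08, 2.90 and 2.99 in parental and of 1.74, 1.51 and 1.84 in adapted samples (log2 fold change -1.29, adjusted p = 7.39e-05). SOCS3, a related inhibitor, went from 5.16 to 4.20 (log2 fold change -0.96, adjusted p = 3.12e-04). TMEM173, which encodes the adaptor STING, had a log2 fold change of -0.88 (adjusted p = 3.73e-04) and CGAS, the DNA sensor upstream of it, of -0.61 (adjusted p = 0.00107). Among the sensors of RNA, TLR3, an endosomal receptor, rose by a log2 fold change of 0.38 (adjusted p = 0.0081). TRIM25, the ubiquitin ligase that modifies RIG-I, had levels of 4.59, 4.68 and 4.59 in parental and of 5.50, 5.50 and 5.43 in adapted samples (log2 fold change 0.86, adjusted p = 3.22e-05). IRF3, the factor downstream of STING, and PTPN2, a phosphatase of JAK1, were the others that fell, with log2 fold changes of -0.25 and -0.37. Left out singly, samples ended some of these calls. TYK2 did not pass without parental sample 1 (log2 fold change 0.23), IFNGR1 without parental sample 1 or 2 (-0.21 and -0.24), IRF3 without parental sample 2 or 3 (-0.24 and -0.23), and PTPN2 without adapted sample 3 or parental sample 1 or 2 (-0.29, -0.35 and -0.30). PTPN2 also did not pass without the filter on low values.

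**Figure D4:**
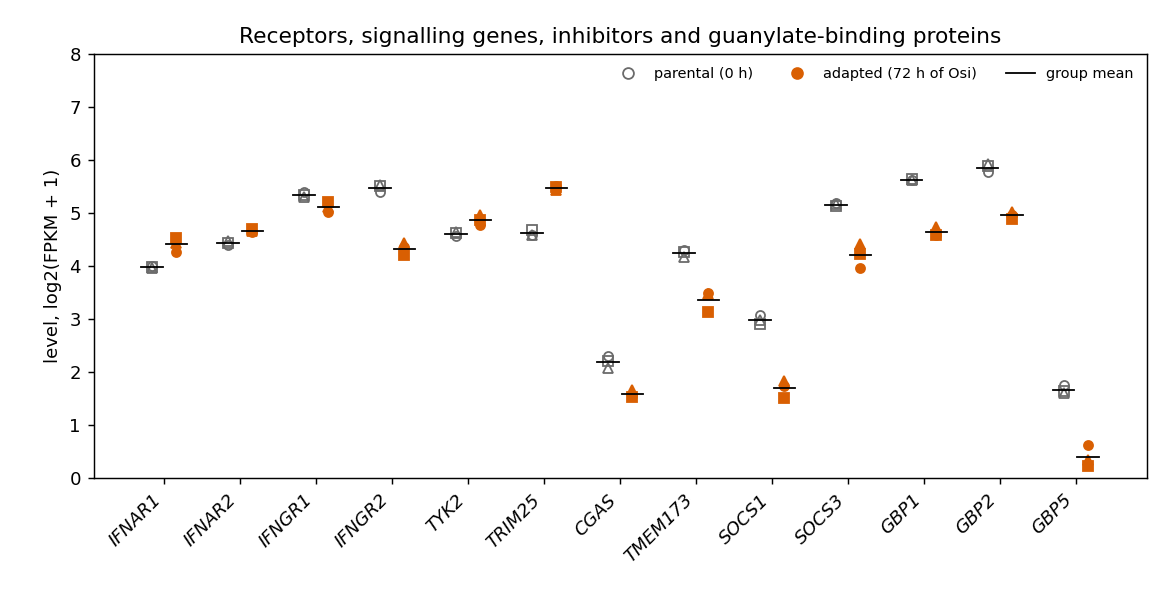
Level, log2(FPKM + 1), of receptors, signalling genes, inhibitors and guanylate-binding proteins in the 6 samples, with circle, square and triangle for replicates 1, 2 and 3 and black lines at group means. IFNAR1 and TRIM25 lie higher in adapted samples and IFNGR2, SOCS1, SOCS3, GBP1 and GBP5 lower.

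A wider list of interferon-induced genes held both genes that rose and genes that fell. Of 61 such genes outside the 44, 51 passed the filter, of which 11 were higher (21.6%) and 15 lower (29.4%), and the median log2 fold change was 0.0092. The 51.0% called compares with 56.9% of all rows, of which 30.7% were higher and 26.2% lower. Guanylate-binding proteins, a family of GTPases, gave 3 of the 5 largest falls. GBP1 had levels of 5.63, 5.63 and 5.61 in parental and of 4.59, 4.58 and 4.74 in adapted samples (log2 fold change -0.98, adjusted p = 2.69e-05). GBP2 had a log2 fold change of -0.90 (adjusted p = 5.04e-05). GBP5 had one of -1.27 (adjusted p = 1.51e-04), with means of 1.67 and 0.40. GBP5 passed the filter only through its parental values, so this p is no test of it. Its place among the 15 lower genes and the largest falls has the same limit. GBP3 had means of 5.35 and 5.54 and did not pass (adjusted p = 0.0568). GBP4, with means of 0.29 and 0.20, lay below the filter. With a pseudocount of 0.1 in place of 1 the log2 fold change of GBP5 was -2.50. BATF2, a transcription factor, had a log2 fold change of -0.86 (adjusted p = 2.06e-04). DDX60, a helicase, had a log2 fold change of -1.21 (adjusted p = 6.21e-04), and its paralog DDX60L one of 0.80 (adjusted p = 0.00251), with the caution that reads of paralogs can be split between them. The others that rose most were EPSTI1, with a log2 fold change of 0.95 (adjusted p = 0.00764), ZNFX1, an RNA helicase on mitochondria, with 0.85 (adjusted p = 3.79e-04), TNFSF10, which encodes the death ligand TRAIL, with 0.73 (adjusted p = 0.0231), and TMEM140, with 0.63 (adjusted p = 5.54e-04). Without the filter on low values EPSTI1 and TNFSF10 did not pass (adjusted p = 0.0532 and 0.11). TNFSF10 was highest in adapted sample 1, at 4.79 against 4.16 and 3.83, and its log2 fold change was 0.46 without that sample. TNFSF10 also did not pass when adapted sample 2 or any 1 parental sample was left out (log2 fold changes of 0.71 to 0.77), nor did TRIM5 without parental sample 3 (0.28). In this list adapted sample 1 was the lowest of the 3 in 51.0% of the genes tested and adapted sample 2 the highest in 52.9%.

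Epithelial markers were abundant, and the markers of other cell types were low or absent apart from CD68. The 6 epithelial markers (KRT7, KRT8, KRT18, KRT19, EPCAM and CDH1) all had means of at least 1, with summed FPKM of 3710 to 3742 in parental and 3491 to 3788 in adapted samples. Of 6 leukocyte markers CD68 alone had a mean of at least 1, CD3E was listed at 0 in all samples, and the sum was 75.0 to 77.5 in parental and 14.9 to 29.8 in adapted samples. CLEC4C and LILRA4, markers of plasmacytoid dendritic cells, the professional producers of interferon, were listed at 0 in all 6 samples. Of 5 fibroblast markers only COL1A1 reached a mean of 1, with sums of 3.04 to 3.16 and 7.65 to 9.21, and of 3 endothelial markers none did. Any part of these shifts in the values of the ISGs was not tested. The samples are bulk RNA, in which fewer cells expressing a gene and less RNA per cell cannot be told apart.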

How the data were processed

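The authors deposited 1 table of values on a log2 scale, with 1 column per sample for 3 parental and 3 adapted samples of H1975 cells. The unit is not named. It was taken as log2(FPKM + 1). Undoing the log2 and the added 1 gave numbers with 6 decimals in all but 147 of the 27216 rows, none of them a gene named here. This points to log2 of a value plus 1, whereas FPKM as that value was inferred from the sums per sample. The submitters' processing notes list hg38, Bowtie2 2.1.0, STAR and edgeR without roles, and the study's methods name a test that needs counts, so limma was used here in its place. Columns were matched to samples by group and replicate number. Summed linear values ran from 375342 to 387753 over the 6 samples. Read depth is unknown, and errors therefore reflect replicates alone.

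Rows with a mean of at least 1 were tested with limma 3.58.1 (lmFit, and eBayes with an intensity trend) in R 4.3.3, unpaired, with Benjamini-Hochberg adjustment over 12656 rows and a threshold of 0.05. The fit was also run on simulated normal values with the same SD in both groups. In the data the adapted SD was larger in 79.9% of all rows, so that run does not check the fit under this spread. SDs are over 3 samples, and fold changes in FPKM are ratios of linear group means. The ISGs, the 2 other lists and the cell type markers were chosen with earlier results of these data known. Values in every sample were given for ISGs past the threshold whose log2 fold change was 1 or more in size and for the ISG with the largest absolute change in each role. Some results for genes of these lists are not reported here. In the other lists up to 5 genes that rose and up to 5 that fell most, and the ligands, were named, and further genes named there were chosen after their values were seen. Gene positions are those of GENCODE 29 on GRCh38, and promoter sequences those of RefSeq on GRCh38.p14, where DDX58 was matched as RIGI. Settings were also varied one at a time: a pseudocount of 0.1, the low-value filter dropped or raised to a mean of 3, quantile normalization, median centring, rescaling without mitochondrially encoded genes, eBayes without a trend or robust, a replicate block, rows left out or corrected for values off the 6-decimal grid, rows outside the annotation left out, and each sample left out in turn.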

Additional observations from a re-analysis of the deposited data

How the results depend on the processing

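With 1 sample left out, the number of ISGs higher in adapted cells ranged from 5, without parental sample 2, to 17, without adapted sample 1, against 9 with all samples. The number of pathway genes lower in adapted cells ranged from 5, without parental sample 2, to 8, and the number of other interferon-induced genes higher ranged from 9 to 20, without adapted sample 1, against 11. Over all rows the calls ranged from 5763, without parental sample 2, to 8370, without adapted sample 1, against 7202. The cause of these ranges was not tested. The median log2 fold change of the ISGs lay between -0.08 and 0.09 over these fits. With the replicate number as a replicate block, 8 ISGs were higher and 10 lower, as were 5 and 8 pathway genes and 11 and 14 other interferon-induced genes. Over all 12656 rows 6761 passed with the block, 54.3% of them higher. Samples with the same number did not deviate together (correlations of -0.05, -0.03 and -0.02 across rows), so the numbers were not taken to pair the samples. Without the filter on low values, 6 ISGs were higher and 7 lower, and HERC6, PARP14, CMPK2, IFI44L and IFITM3 lost their calls. Then 8016 of the 27216 rows tested passed, 54.1% of them higher. No scaling moved the median of all rows by over 0.1. Of 25 ISGs that did not pass, 13 passed in at least 1 of 18 alternatives and 9 changed sign in at least 1. The 3 samples per group, unknown depth, an unnamed unit and a time in culture tied to treatment limit what these values can show.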

Other observations

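CXCL10 and CCL5, genes of the wider interferon list, chosen after their values were seen, lay below the filter and moved apart. CXCL10, a chemokine for T cells, had levels of 0.27, 0.37 and 0.61 in parental and of 1.01, 1.18 and 1.47 in adapted samples, a 3.99-fold difference in mean FPKM. CCL5, another T cell chemokine, had levels of 1.48, 1.34 and 1.38 in parental and of 0.37, 0.45 and 0.42 in adapted samples, 4.92-fold lower in mean FPKM. In both genes the groups did not overlap, as in 66.3% of all rows tested. The exact permutation p was 0.1, the smallest that 3 against 3 samples can give. Since both genes were chosen by their values, this p is no test of them. Of the related chemokines, CXCL11 had means of 0.11 and 0.49 without overlap. CXCL9 had means of 0.02 and 0.04 with overlap, and both lay below the filter.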
